A study of Mus musculus with 8 samples.

Results

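The genes described here are 43 components of the centromere, the kinetochore, the spindle checkpoint and the chromosomal passenger complex, together with 2 mitotic kinases and Cdca3, measured by RNA-seq in the mouse left ventricle. They were taken by symbol from a fixed list, and all 43 were present among the 55679 genes of the expression table. The table held 8 libraries from wild-type (WT) C57BL/6J male mice, 4 from a control group and 4 from an ANG II group, here numbered 1 to 4 within each group. For 7 days the control mice received saline and the ANG II mice angiotensin II at 1500 ng/kg/min, a dose that raises blood pressure, from osmotic mini-pumps under the skin. Hearts were flushed with saline before the left ventricle was taken, so each value is an average over all cell types of the ventricle. The age of the mice was not given in the sources used here. Values are FPKM, fragment counts scaled to the length of the transcript and to the number of mapped fragments in the library.

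The kinetochore is the protein assembly that joins a chromosome to the microtubules of the spindle. Its base, the constitutive centromere network, sits on nucleosomes that carry the histone variant CENP-A through the whole cell cycle, and its outer layer, which binds microtubules, is built up when a cell enters mitosis. Unattached kinetochores run the spindle checkpoint, which restrains the anaphase-promoting complex through its activator Cdc20, and the chromosomal passenger complex releases faulty attachments. Most cardiomyocytes of the adult heart have left the cell cycle, and transcripts needed only in mitosis are scarce in the healthy ventricle.

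The libraries held between 14455654 and 16564828 fragments, as recovered from the steps of the FPKM values. Mitochondrially encoded genes took 26.3% to 26.9% of these fragments in control and 19.2% to 21.8% in ANG II. Cardiomyocyte markers identified the tissue in every library, with a summed level of 42562 to 43404 FPKM in control and 31400 to 34508 in ANG II, and 2 of 8 were called lower. All 8 fibroblast markers were called higher, their sum going from a range of 432 to 620 FPKM in control to 2386 to 2808 in ANG II. The 8 macrophage markers were likewise all called higher, from 260 to 331 FPKM in control to 584 to 815 in ANG II. Of the other marker lists, 9 of 10 proliferation markers, 4 of 8 T cell, 4 of 5 tested neutrophil, 3 of 8 smooth muscle and pericyte, 1 of 8 endothelial and 1 of 6 B cell markers were called higher, and no marker was at 0 in every library. In whole tissue, fewer cells of a type and less RNA per cell cannot be told apart, and the part of these markers in the results below was not tested.

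Of the 43 genes, 24 (55.8%) were called higher in ANG II and none lower, against 14.0% of all 19364 genes tested called higher and 1.41% called lower. A call required an adjusted p below 0.05, from limma on log2(FPKM + 1) with Benjamini-Hochberg adjustment over all genes tested, and an absolute log2 fold change above 0.5. Another 8 genes passed the adjusted p without the fold change, so that 32 of 43 passed it, against 33.3% of all genes in either direction. In 29 of the 43 all 4 ANG II values lay above all 4 control values, against 28.7% of all genes. Ska1 is among the 8, the 32 and the 29, though it entered the fit only through its ANG II values. In the limma fit none of the 43 was lower even at an unadjusted p below 0.05, where 37 were higher. Voom on the recovered fragments had 36 higher and 1 lower at that level. It called 29 higher and none lower, and Ska1 is in each of these counts of higher genes. The median log2 fold change was 0.66 over the 43 genes and 0.15 over all genes tested, a difference of 0.51. With voom these medians were 1.36 and 0.23. Median-of-ratios scaling, which moved the median of all genes to 0.0040, left 24 of the 43 called, 23 of them higher and Cenpf lower, against 8.62% of all genes called higher and 4.15% lower under that scaling. Of the 8 genes below the fold threshold, Cenpb, Cenph, Cenpp, Mis12, Pmf1, Zwint and Mad1l1 did not pass the adjusted p under that scaling. Their adjusted p-values there ran from 0.0629 in Cenph to 0.224 in Mis12.

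The classes were called to different extents. All 4 passenger complex genes and all 3 of Aurka, Plk1 and Cdca3 were called higher, with medians of 1.28 and 1.24 on the log2 scale. The spindle checkpoint class had 5 of 7 called (median 0.95), the outer kinetochore 7 of 14 (median 0.57) and the constitutive centromere 5 of 15 (median 0.46). The last count depended on the fit, at 8 without ANG II library 4, with voom or with a pseudocount of 0.1, at 2 with genes of a mean of 1 FPKM or more, and at 1 with quantile normalization. Cenpi, Cenpk, Cenpl and Cenpm were not tested in the fit of genes at 1 FPKM or more. The log2(FPKM + 1) scale understates the change of low genes. With voom the medians were 2.07 for the passenger complex, 2.20 for Aurka, Plk1 and Cdca3, and 2.03 for the spindle checkpoint. They were 1.33 for the outer kinetochore and 0.93 for the constitutive centromere. The differences between classes, and between genes of a class, were not tested.

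**Figure D1:**
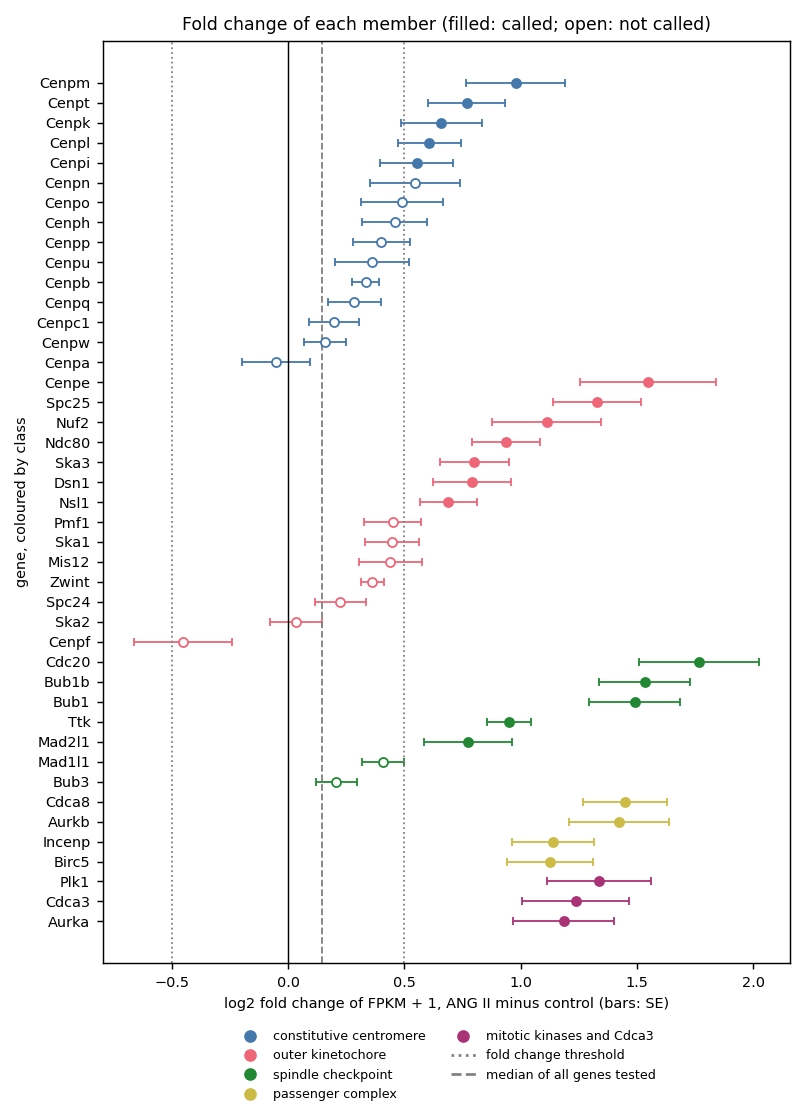
Log2 fold change of FPKM + 1 (ANG II minus control, horizontal axis) for each of the 43 genes, with bars for the SE, 4 libraries a group, coloured by class and filled where called. Passenger complex genes and mitotic kinases all lie right of 1, Cenpa and Cenpf lie left of 0, and the dashed line marks the median of all genes tested at 0.15.

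Level in the control ventricle varied over a wide range among genes of one structure. Mean control FPKM went from 0.0709 for Ska1 to 39.4 for Zwint, and lay below 1 for 21 of 43 genes. In the limma fit on FPKM as deposited, 16 of those 21 genes were called and none of the 9 with a control mean of 5 FPKM or more, a division made after the values were seen. Of those 9, 6 were higher at an unadjusted p below 0.05 in limma, and with voom 6 were higher and 1 lower. Voom and a pseudocount of 0.1 each called Pmf1 higher, and other fits called Mis12 higher or Cenpf lower. Over all genes tested, at any level, 14.0% were called higher, and the share of all genes called at these levels was not counted. The control values also enter each fold change, so the division by level is a description. The FPKM of a gene was scaled by the mean length of its annotated transcripts, so levels of different genes depend on that length.

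**Figure D2:**
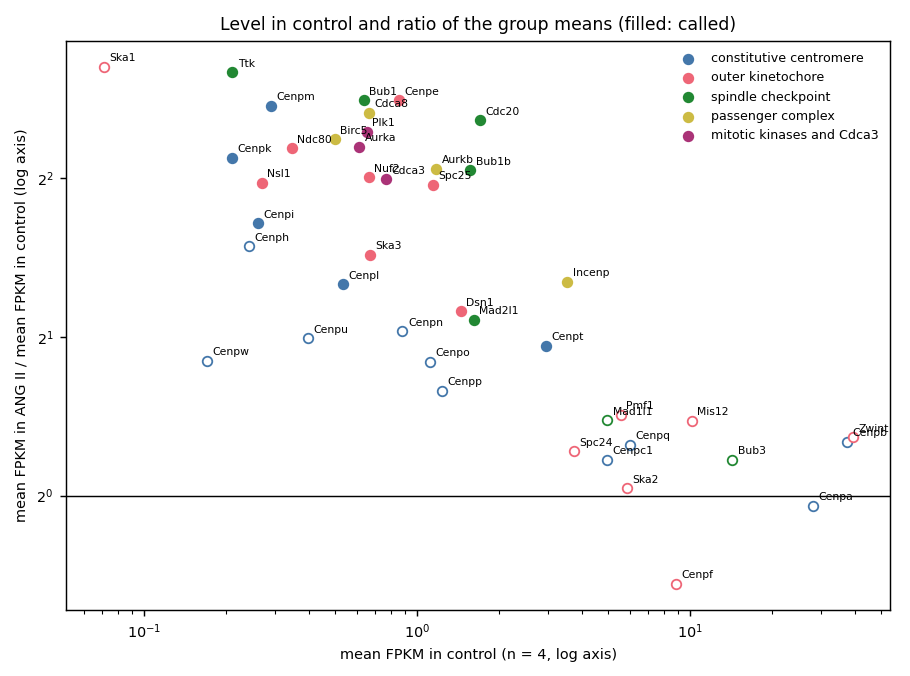
Mean FPKM in control (horizontal, log axis) against the ratio of mean FPKM in ANG II to mean FPKM in control (vertical, log axis), 1 point per gene, 4 libraries a group, filled where called. Genes under 1 FPKM in control have ratios from 1.80 to 6.52, while those above 4 FPKM stay between 0.680 and 1.42. The ratio of 6.52 is that of Ska1, which entered the fit only through its ANG II values.

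Promoter sequence was examined because genes of mitosis often share short motifs near their start: the cell cycle genes homology region (CHR, TTTGAA or TTCGAA), bound by the MuvB family of complexes, and the CCAAT box (CCAAT), bound by NF-Y. RefSeq windows (GRCm38.p6) from 250 bases before to 50 after the annotated start were supplied for 38 of the 43 genes and not for Aurkb, Incenp, Nsl1, Ska1 and Spc24. Searched on both strands, a CHR was found in 19 of 38 genes (50%), against 21.7% of 27025 genes with a window. CCAAT was found in 27 (71.1%), against 41.1%, and both together in 17 (44.7%), against 8.61%. An E2F motif (TTTGGCGC, TTTCCCGC, TTTGCCGC or TTTCGCGC) was found in 4, against 2.60% of all genes. Of the 21 called genes with a window 13 held a CHR, 14 a CCAAT, 11 both and 5 neither. Of the 17 not called 6 held a CHR, 13 a CCAAT, 6 both and 4 neither. CHR and CCAAT matches can overlap, as they do by 1 base in Cdca8. A match is a string of letters, not a measured binding site.

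The stretches below run from 150 bases before to 50 bases after the start, 5′ to 3′ on the strand of the gene, with CHR and CCAAT matches on either strand in capitals. They show in each class the called gene with the largest fold change among those holding both motifs, then Cdca3, then Cenpa and Cenpf, which held both motifs and were not called. Cenpm lies at chr15:82244287-82244486, minus strand, Spc25 at chr2:69206164-69206363, minus strand, Cdc20 at chr4:118437294-118437493, minus strand, and Cdca8 at chr4:124936868-124937067, minus strand. Plk1 lies at chr7:122159285-122159484, plus strand, Cdca3 at chr6:124830026-124830225, plus strand, Cenpa at chr5:30666736-30666935, plus strand, and Cenpf at chr1:189688037-189688236, minus strand.
Cenpm: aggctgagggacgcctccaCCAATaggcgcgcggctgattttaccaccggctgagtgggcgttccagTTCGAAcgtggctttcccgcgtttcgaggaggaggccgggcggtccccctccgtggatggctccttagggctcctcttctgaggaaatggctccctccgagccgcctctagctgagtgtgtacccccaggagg
Spc25: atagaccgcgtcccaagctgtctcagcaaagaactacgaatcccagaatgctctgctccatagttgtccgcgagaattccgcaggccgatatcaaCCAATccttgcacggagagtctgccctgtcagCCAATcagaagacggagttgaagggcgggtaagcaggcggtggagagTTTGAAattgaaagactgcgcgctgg
Cdc20: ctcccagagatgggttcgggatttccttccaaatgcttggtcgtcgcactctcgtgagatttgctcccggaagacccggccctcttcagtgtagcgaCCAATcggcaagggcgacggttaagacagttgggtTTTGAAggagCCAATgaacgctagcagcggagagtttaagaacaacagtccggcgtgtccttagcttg
Cdca8: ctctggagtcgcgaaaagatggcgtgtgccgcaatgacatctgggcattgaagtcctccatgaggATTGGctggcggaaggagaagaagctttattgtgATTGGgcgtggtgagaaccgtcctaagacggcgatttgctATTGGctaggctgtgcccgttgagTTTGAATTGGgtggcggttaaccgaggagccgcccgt
Plk1: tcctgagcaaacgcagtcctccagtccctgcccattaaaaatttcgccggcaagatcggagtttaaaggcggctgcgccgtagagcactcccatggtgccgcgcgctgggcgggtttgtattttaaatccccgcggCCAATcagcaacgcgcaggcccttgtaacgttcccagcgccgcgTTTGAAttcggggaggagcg
Cdca3: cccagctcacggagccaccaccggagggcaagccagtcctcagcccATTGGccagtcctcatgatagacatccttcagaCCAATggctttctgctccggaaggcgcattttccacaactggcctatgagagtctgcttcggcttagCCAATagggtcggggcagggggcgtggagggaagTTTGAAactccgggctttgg
Cenpa: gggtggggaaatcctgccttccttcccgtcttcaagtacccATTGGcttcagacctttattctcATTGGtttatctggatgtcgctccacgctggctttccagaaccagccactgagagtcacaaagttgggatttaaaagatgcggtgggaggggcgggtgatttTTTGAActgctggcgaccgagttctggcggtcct
Cenpf: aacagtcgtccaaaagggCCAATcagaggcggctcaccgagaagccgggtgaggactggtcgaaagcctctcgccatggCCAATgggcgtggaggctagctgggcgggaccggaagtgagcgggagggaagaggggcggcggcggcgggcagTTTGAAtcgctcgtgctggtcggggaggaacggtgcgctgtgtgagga

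The CHR began 18 bases before the start in Cdc20 and 83 before it in Cenpm, and after the start in the other six stretches, by 2 bases in Cenpf, 13 in Cdca8, 16 in Cenpa, 24 in Spc25 and 30 in Plk1 and Cdca3. Cenpa and Cenpf thus carried the CHR and CCAAT letters in the same part of the window as genes that rose. The windows of Birc5, Nuf2, Cenpt, Mad2l1 and Dsn1, which rose, held neither motif, which says only that these letters are not in these windows.

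**Figure D3:**
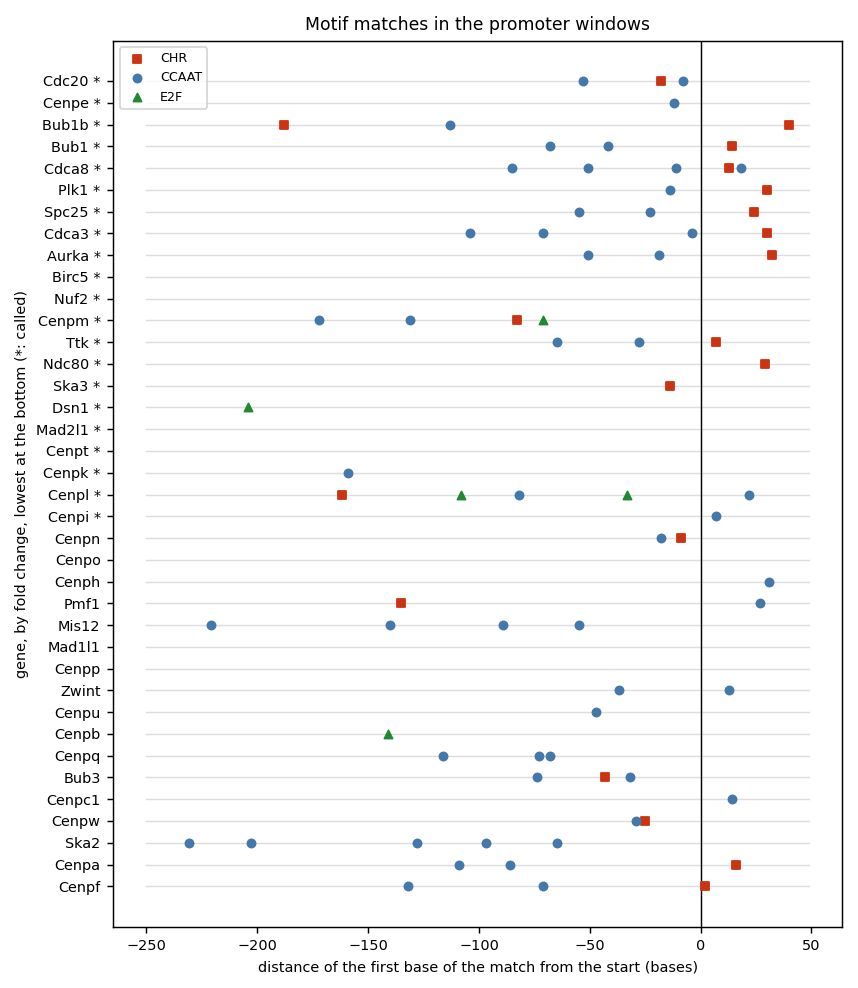
Distance of the first base of each CHR, CCAAT and E2F match from the annotated start (horizontal, bases) in 1 window for each of 38 genes, ordered by log2 fold change with called genes marked by a star. CHR matches lie mostly from shortly before the start to 40 bases after it, among called genes and also in Cenpa and Cenpf at the bottom.

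The spindle checkpoint held the genes with some of the highest fold changes. Cdc20, the activator of the anaphase-promoting complex that the checkpoint holds in check, gave 1.75, 1.73, 1.93 and 1.40 FPKM in control libraries 1 to 4 and 12.9, 10.4, 7.58 and 4.19 in ANG II libraries 1 to 4. Every ANG II library was above every control library, and ANG II library 1 was 3.07 times library 4 (log2 fold change 1.77 ± 0.26 SE, adjusted p = 0.000692). Part of Cdc20 (10.6% of its 50-base words) is shared with Gm7856, so its fragments could have been divided between them.

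Bub1b encodes BubR1, part of the inhibitor that binds Cdc20, and measured 1.78, 1.35, 2.10 and 1.04 FPKM in control libraries 1 to 4 and 7.73, 6.97, 7.25 and 4.02 in ANG II libraries 1 to 4. Bub1, the kinase that brings the checkpoint proteins to the kinetochore, measured 0.726, 0.332, 1.12 and 0.370 FPKM in the control libraries and 4.37, 3.50, 4.17 and 2.33 in the ANG II libraries. Both rose without overlap of the groups, Bub1b (log2 fold change 1.53 ± 0.20 SE, adjusted p = 0.000318) and Bub1 (log2 fold change 1.49 ± 0.20 SE, adjusted p = 0.000374). For Ttk, the Mps1 kinase that starts checkpoint signalling, the values were 0.284, 0.176, 0.248 and 0.134 FPKM in the control libraries and 1.45, 1.19, 1.42 and 1.28 in the ANG II libraries. The 4 ANG II values of Ttk were close together, with a coefficient of variation of 9.25%, where the median of the called genes was 27.4%, and its adjusted p was the lowest of the 43 genes (log2 fold change 0.95 ± 0.09 SE, adjusted p = 8.06e-05). Ttk rested on 25 fragments in the 4 control libraries and 162 in the 4 ANG II libraries.

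Mad2l1, the protein that changes shape at unattached kinetochores to hold Cdc20, was called with a smaller change, from 1.10 to 2.13 FPKM in control to 2.35 to 4.64 in ANG II (log2 fold change 0.77 ± 0.19 SE, adjusted p = 0.0105), and lost the call under quantile normalization (adjusted p = 0.0719). Its partner Mad1l1 had 4.83, 5.78, 4.70 and 4.56 FPKM in the control libraries and 7.51, 6.68, 6.65 and 6.76 in the ANG II libraries. The groups did not overlap and the adjusted p passed, but the log2 fold change of 0.41 did not reach the threshold (adjusted p = 0.00668). Bub3, which carries Bub1 and BubR1 to the kinetochore and is present through the cell cycle, had 14.6, 15.0, 13.5 and 14.0 FPKM in the control libraries and 18.5, 14.5, 18.4 and 15.3 in the ANG II libraries. Its groups overlapped and it was not called (log2 fold change 0.21 ± 0.09 SE, adjusted p = 0.0986), and its difference was -0.0087 under median-of-ratios scaling.

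All 4 genes of the chromosomal passenger complex rose. Aurkb, its kinase, had 1.16, 1.08, 1.77 and 0.686 FPKM in the control libraries and 5.61, 4.93, 6.25 and 2.82 in the ANG II libraries. Incenp, the scaffold that activates the kinase, was the most abundant of the 4 in every library, at 4.66, 3.92, 2.80 and 2.79 FPKM in the control libraries and 12.1, 8.95, 7.85 and 7.21 in the ANG II libraries. In neither gene did the groups overlap, and both rose, Aurkb (log2 fold change 1.42 ± 0.22 SE, adjusted p = 0.000823) and Incenp (log2 fold change 1.14 ± 0.18 SE, adjusted p = 0.000936).

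Cdca8, or borealin, which places the complex on the centromere, had 0.892, 0.589, 0.908 and 0.281 FPKM in the control libraries and 4.35, 3.95, 3.60 and 2.33 in the ANG II libraries. Birc5, or survivin, which reads a histone mark at the centromere, had 0.582, 0.448, 0.508 and 0.458 FPKM in the control libraries and 3.64, 2.08, 2.41 and 1.34 in the ANG II libraries. Control libraries 1 to 4 of Birc5 lay within 0.134 FPKM of each other while the ANG II values spread over 2.29 FPKM, all above control. Both genes rose, Cdca8 (log2 fold change 1.45 ± 0.18 SE, adjusted p = 0.000285) and Birc5 (log2 fold change 1.13 ± 0.18 SE, adjusted p = 0.00125). Birc5 rested on 65 fragments over the 4 control libraries and 313 over the 4 ANG II libraries. The most abundant passenger gene had 7.10 times the FPKM of the least abundant in control and 3.81 times in ANG II.

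Aurka, the kinase of the spindle poles, had 0.648, 0.592, 0.739 and 0.471 FPKM in the control libraries and 4.28, 2.44, 3.19 and 1.35 in the ANG II libraries. Plk1, which works at centrosomes, kinetochores and the midbody, had 0.711, 0.704, 1.03 and 0.168 FPKM in the control libraries and 3.95, 3.54, 3.62 and 1.71 in the ANG II libraries. Both rose without overlap, Aurka (log2 fold change 1.18 ± 0.22 SE, adjusted p = 0.00241) and Plk1 (log2 fold change 1.34 ± 0.22 SE, adjusted p = 0.00145). In Plk1, 10.4% of the 50-base words are shared with the pseudogene Plk-ps1. Cdca3, which promotes entry into mitosis, had 1.68, 0.415, 0.628 and 0.340 FPKM in the control libraries and 3.54, 2.83, 3.78 and 2.06 in the ANG II libraries. Control library 1 was far above the other control libraries and yet below the lowest ANG II value (log2 fold change 1.24 ± 0.23 SE, adjusted p = 0.00264). Birc5, Nuf2, Cdca3 and Bub1b were among the genes the study selected on its RNA-seq data of these groups, so their differences here are not independent evidence.

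**Figure D4:**
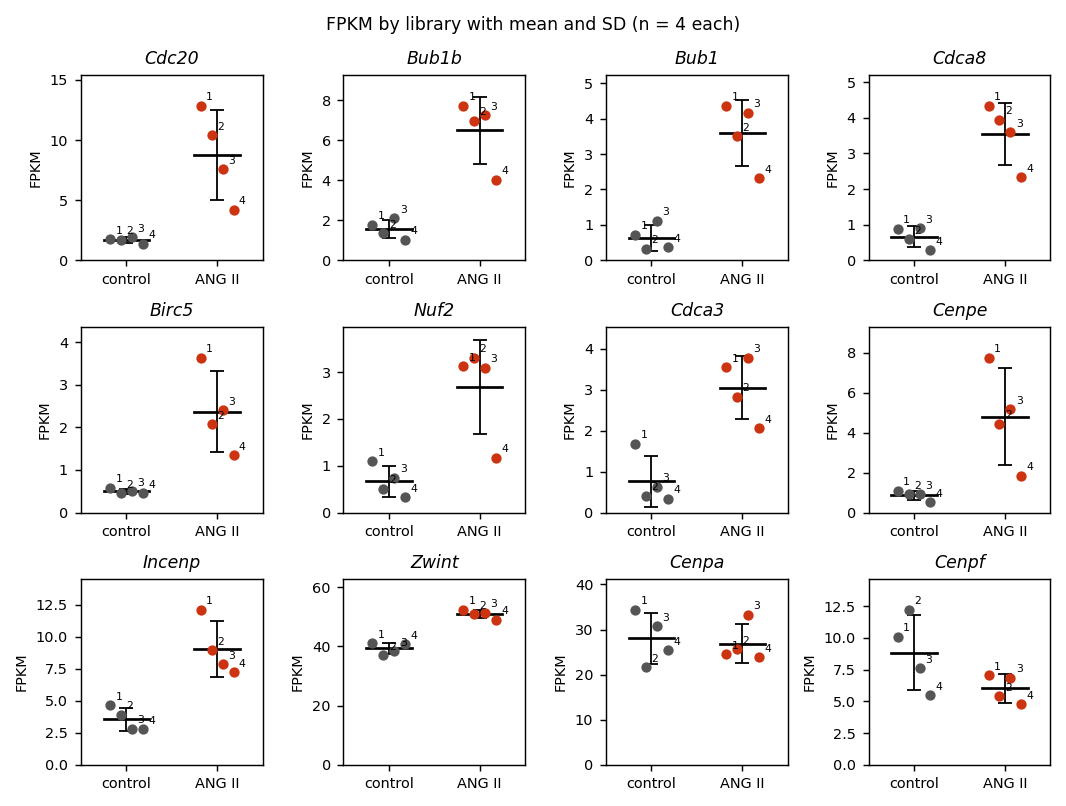
FPKM in each of the 4 control (grey) and 4 ANG II (red) libraries for 12 genes, numbered by library, with the mean (line) and SD (bars). In the first 9 panels, Cdc20 to Incenp, all ANG II values lie above control and library 4 is the lowest ANG II value, in Zwint the groups are narrow and apart, and in Cenpa and Cenpf they overlap.

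In the outer kinetochore 7 genes rose, among them 3 of the Ndc80 complex and the motor Cenpe. Cenpe, the kinesin that carries chromosomes to the spindle equator, had 1.08, 0.906, 0.916 and 0.512 FPKM in the control libraries and 7.75, 4.45, 5.18 and 1.84 in the ANG II libraries. ANG II library 1 was 4.22 times library 4, which was still above all controls (log2 fold change 1.55 ± 0.29 SE, adjusted p = 0.00284).

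The Ndc80 complex, 4 proteins that grip the microtubule, had 3 genes called. Spc25 had 1.34, 0.666, 1.23 and 1.33 FPKM in the control libraries and 5.64, 3.60, 5.53 and 3.04 in the ANG II libraries. Nuf2 had 1.09, 0.506, 0.744 and 0.322 FPKM in the control libraries and 3.12, 3.31, 3.10 and 1.17 in the ANG II libraries. Ndc80 had 0.365, 0.211, 0.611 and 0.201 FPKM in the control libraries and 2.15, 1.57, 1.48 and 1.13 in the ANG II libraries. All 3 rose without overlap between the groups, Spc25 (log2 fold change 1.33 ± 0.19 SE, adjusted p = 0.00061), Nuf2 (log2 fold change 1.11 ± 0.23 SE, adjusted p = 0.00508) and Ndc80 (log2 fold change 0.94 ± 0.15 SE, adjusted p = 0.00102), and the ANG II value of Nuf2 in library 4 was 0.0813 FPKM above the highest control. The fourth gene, Spc24, was not called, at 3.18 to 4.21 FPKM in control and 3.88 to 5.11 in ANG II (log2 fold change 0.22 ± 0.11 SE, adjusted p = 0.15). In control Spc24 was 10.8 times as abundant as Ndc80 by FPKM, and in ANG II the highest of the 4 genes was 2.87 times the lowest.

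The Mis12 complex links the centromere to the Ndc80 complex, and 2 of its 4 genes were called. Dsn1 went from 0.951 to 1.90 FPKM in control to 2.53 to 4.43 in ANG II (log2 fold change 0.79 ± 0.17 SE, adjusted p = 0.00549), and Nsl1 from 0.195 to 0.372 FPKM in control to 0.659 to 1.35 in ANG II (log2 fold change 0.69 ± 0.12 SE, adjusted p = 0.00206). Mis12 itself, at 11.9, 9.15, 11.4 and 8.08 FPKM in the control libraries and 16.8, 13.3, 11.7 and 14.5 in the ANG II libraries, passed the adjusted p but not the fold change, and its groups overlapped by 1 library on each side (log2 fold change 0.44 ± 0.14 SE, adjusted p = 0.0314). Pmf1, the remaining subunit, measured 4.44 to 6.46 FPKM in control and 7.15 to 9.32 in ANG II, without overlap, with a fold change below the threshold (log2 fold change 0.45 ± 0.12 SE, adjusted p = 0.0172).

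Zwint, which binds the checkpoint platform Knl1, had the highest mean FPKM of the 43 genes in both groups. It gave 41.2, 37.1, 38.4 and 40.9 FPKM in the control libraries and 52.4, 50.9, 51.4 and 49.1 in the ANG II libraries. The groups stood apart with an SD of 1.94 and 1.39 FPKM, at a ratio of means of 1.29 (log2 fold change 0.36 ± 0.05 SE, adjusted p = 0.000541). The difference was below the fold threshold, and under median-of-ratios scaling the adjusted p was 0.0891.

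In the Ska complex, which holds kinetochores on shortening microtubules, Ska3 was called, from 0.473 to 0.929 FPKM in control to 1.36 to 2.52 in ANG II (log2 fold change 0.80 ± 0.15 SE, adjusted p = 0.00254). Ska1 was at 0 in 2 control libraries and at 0.0604 and 0.223 FPKM in the others, and at 0.260 to 0.671 in ANG II (log2 fold change 0.45 ± 0.12 SE, adjusted p = 0.0153). It rested on 10 control fragments and 62 ANG II fragments in all. Its control mean was below the filter of 0.1 FPKM, so Ska1 entered the fit only through its ANG II values, and its p is no support for a difference. Ska2 was not called, at 5.07 to 6.45 FPKM in control and 5.43 to 7.41 in ANG II (log2 fold change 0.03 ± 0.11 SE, adjusted p = 0.842), and 10.1% of its exon bases lie under the opposite-strand gene Gm11491.

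Cenpf was the gene with the lowest fold change of the 43. This large coiled-coil protein of the mitotic kinetochore is also found at the nuclear envelope. It gave 10.1, 12.2, 7.61 and 5.47 FPKM in the control libraries and 7.06, 5.40, 6.87 and 4.75 in the ANG II libraries. The groups overlapped and the difference did not pass the test as deposited (log2 fold change -0.45 ± 0.21 SE, adjusted p = 0.13). It was called lower under median-of-ratios scaling (log2 fold change -0.65, adjusted p = 0.0371), under quantile normalization (-0.75, adjusted p = 0.0187) and without control library 4 (-0.64, adjusted p = 0.0236). Transcripts of Cenpf ranged from 358 to 11130 bases in the annotation, and the FPKM does not separate them.

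**Figure D5:**
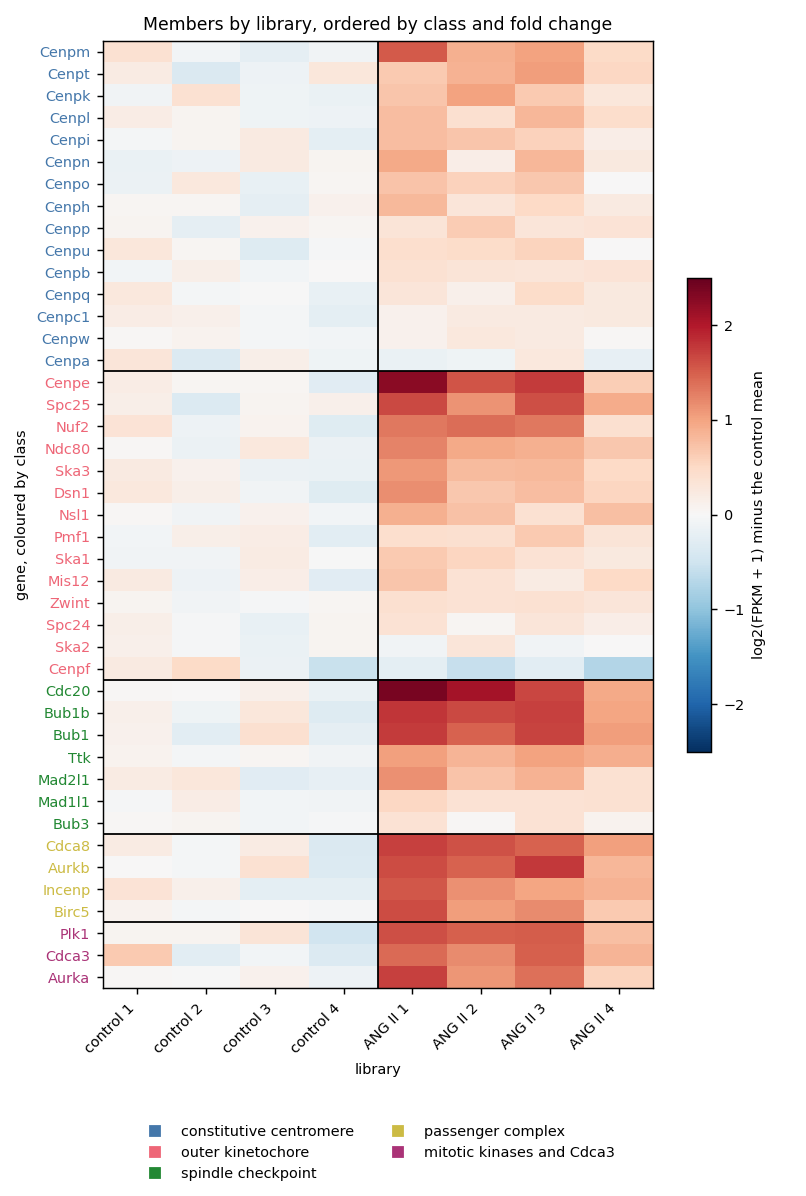
Log2(FPKM + 1) minus the control mean for each of the 43 genes (rows, ordered by class and fold change) in the 8 libraries (columns). ANG II library 1 is the darkest red column and library 4 the palest for most called genes, and Cenpf is blue in all 4 ANG II columns.

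At the constitutive centromere 10 of 15 genes were not called, and 5 (33.3%) were called higher, against 14.0% of all genes tested. Cenpa, the histone variant that marks the centromere, gave 34.4, 21.6, 30.8 and 25.4 FPKM in the control libraries and 24.6, 25.7, 33.3 and 23.9 in the ANG II libraries. The ANG II range lay within the control range and the ratio of means was 0.958 (log2 fold change -0.05 ± 0.15 SE, adjusted p = 0.821). Cenpb, which binds a short box in satellite DNA, gave 35.6, 41.4, 35.6 and 37.6 FPKM in the control libraries and 48.8, 47.3, 46.3 and 47.5 in the ANG II libraries. It was higher in every ANG II library, with a fold change below the threshold (log2 fold change 0.33 ± 0.06 SE, adjusted p = 0.00177), and under median-of-ratios scaling its adjusted p was 0.201. Cenpc1, the link from CENP-A nucleosomes to the outer layer, measured 4.00 to 5.72 FPKM in control and 5.36 to 5.98 in ANG II (log2 fold change 0.20 ± 0.11 SE, adjusted p = 0.187).

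Within the subcomplexes of the centromere network some genes were called and others not. In CENP-H-I-K-M, 3 of 4 genes were called. Cenpm gave 0.649, 0.214, 0.0943 and 0.204 FPKM in the control libraries and 2.68, 1.37, 1.55 and 0.782 in the ANG II libraries. Cenpk gave 0.123, 0.549, 0.108 and 0.0583 FPKM in the control libraries and 0.941, 1.40, 0.884 and 0.446 in the ANG II libraries. Cenpm (log2 fold change 0.98 ± 0.21 SE, adjusted p = 0.00629) rose without overlap, and Cenpk (log2 fold change 0.66 ± 0.17 SE, adjusted p = 0.0156) with control library 2 above ANG II library 4. Cenpk lost the call under quantile normalization (adjusted p = 0.0518). Cenpm rested on 11 control fragments and 63 ANG II fragments, Cenpk on 14 and 64. Cenpi, at 0.0557 to 0.463 FPKM in control and 0.400 to 1.15 in ANG II, overlapped by 1 library on each side (log2 fold change 0.55 ± 0.16 SE, adjusted p = 0.0212) and was called in 10 of 16 alternative fits. Cenph, at 0.0623 to 0.337 FPKM in control and 0.452 to 1.16 in ANG II, passed the adjusted p but not the fold change (log2 fold change 0.46 ± 0.14 SE, adjusted p = 0.0316). Its groups did not overlap, its ratio of means was 2.97, and it rested on 14 control and 43 ANG II fragments. Voom called Cenph higher (log2 fold change 1.55, adjusted p = 0.0378), as did a pseudocount of 0.1, so its call depended on the scale.

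Cenpt, which can recruit Ndc80 directly, gave 3.51, 2.04, 2.59 and 3.71 FPKM in the control libraries and 5.13, 6.08, 7.00 and 4.60 in the ANG II libraries. It rose without overlap (log2 fold change 0.77 ± 0.17 SE, adjusted p = 0.0058), and lost the call under quantile normalization (adjusted p = 0.0796). Its histone-fold partner Cenpw, at 0.115 to 0.241 FPKM in control and 0.199 to 0.398 in ANG II, was not called (log2 fold change 0.16 ± 0.09 SE, adjusted p = 0.213). Cenpl gave 0.734, 0.600, 0.417 and 0.392 FPKM in the control libraries and 1.61, 1.01, 1.71 and 1.07 in the ANG II libraries and was called (log2 fold change 0.61 ± 0.14 SE, adjusted p = 0.00695), though not under quantile normalization (log2 fold change 0.41), while its partner Cenpn, at 0.676 to 1.18 FPKM in control and 1.09 to 2.62 in ANG II, missed the adjusted p (log2 fold change 0.55 ± 0.19 SE, adjusted p = 0.0536).

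None of the 4 genes of the CENP-O-P-Q-U group was called in the limma fit on FPKM as deposited, though all 4 were higher at an unadjusted p below 0.05. Voom called Cenpo and Cenpp, a pseudocount of 0.1 called Cenpp, and leaving out ANG II library 4 or control library 2 called Cenpo. Cenpq, the most abundant, gave 7.37, 5.69, 5.90 and 5.10 FPKM in the control libraries and 7.65, 6.63, 8.59 and 7.21 in the ANG II libraries. Its groups overlapped (log2 fold change 0.29 ± 0.11 SE, adjusted p = 0.0825). The log2 fold changes of Cenpo, Cenpp and Cenpu were 0.49, 0.40 and 0.36, with adjusted p-values of 0.0564, 0.0315 and 0.11. These 3 genes overlap others on the opposite strand over 22.5%, 12.6% and 26.7% of their exon bases. The overlapping genes are Adcy3 and Ptrhd1 for Cenpo, Aspn and Ippk for Cenpp, and Primpol for Cenpu. The library protocol names no step that keeps the strand, and the part of these overlaps in the values was not tested.

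Spread within the ANG II group followed the library. Among the 24 called genes, ANG II library 1 was the highest of its group in 18 and library 4 the lowest in 21, and the order 1, 3, 2, 4 from high to low held in 11. Summed over the 24 genes, FPKM was 29.1, 22.1, 24.2 and 17.8 in control libraries 1 to 4 and 107.0, 83.6, 87.9 and 52.5 in ANG II libraries 1 to 4. The lowest ANG II sum was thus 1.81 times the highest control sum, but these genes were picked for being called higher, so the gap follows from the choice. Over all 43 genes the sums ran from 182 to 215 FPKM in control and from 250 to 324 in ANG II. Control library 4 was the lowest control in 17 of the 24. The summed proliferation markers ran in the same order over the ANG II libraries, at 142, 116, 120 and 79.4 FPKM, and so did the endothelial markers, at 656, 611, 641 and 572 FPKM. The other 7 marker lists ran in other orders, among them the macrophage markers (721, 584, 815 and 598 FPKM) and the fibroblast markers (2808, 2658, 2397 and 2386 FPKM). The part of any of them in the spread was not tested. The median coefficient of variation of the 24 genes was 32.2% in control and 27.4% in ANG II.

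Other genes of the pathway gave a mixed picture. Of 38 not among the 43, 13 (34.2%) were called higher and none lower in the limma fit (1 was lower at an unadjusted p below 0.05, and voom called 14 higher and none lower), with a median log2 fold change of 0.33, against 14.0% and 0.15 over all genes tested. The 21 genes of the centromere, kinetochore and cohesin protection had 11 called, and the 17 of the anaphase-promoting complex had 2 (11.8%), Ube2c and Anapc15, a share near that of all genes. Ube2c was called in all 17 alternative fits and Anapc15, whose groups overlapped, in 8 of 17, with an adjusted p of 0.0748 after scaling by the median of ratios and 0.172 after quantile normalization. The largest changes were those of Ube2c, the ubiquitin-conjugating enzyme of the complex (log2 fold change 1.63 ± 0.23 SE, adjusted p = 0.000634), Kif2c, a kinesin that takes microtubules apart (log2 fold change 1.58 ± 0.22 SE, adjusted p = 0.000481), Kntc1, a subunit of the complex that brings dynein to kinetochores (log2 fold change 1.34 ± 0.20 SE, adjusted p = 0.00074), Espl1, the protease separase (log2 fold change 1.05 ± 0.14 SE, adjusted p = 0.000354), and Spdl1, an adaptor for dynein (log2 fold change 1.05 ± 0.18 SE, adjusted p = 0.00157). Kif2c reached a ratio of means of 10.1 on 20 control and 212 ANG II fragments. Ube2c and Anapc15 lie under genes of the opposite strand, Tnnc2 and Tomt, over 22.8% and 38.4% of their exon bases, and no step that keeps the strand is named.

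A pair of further genes is named after their values were seen. Hjurp, the chaperone that deposits CENP-A, gave 26.7, 23.4, 24.3 and 21.3 FPKM in the control libraries and 42.9, 32.7, 31.7 and 34.7 in the ANG II libraries and was called (log2 fold change 0.54 ± 0.10 SE, adjusted p = 0.00258). The call held in 12 of 17 alternative fits, and the log2 fold change was below the threshold under median-of-ratios scaling (0.32) and quantile normalization (0.34). Pttg1, or securin, the inhibitor of separase, gave 67.7, 57.3, 67.1 and 63.3 FPKM in the control libraries and 47.5, 45.3, 52.8 and 51.9 in the ANG II libraries. All its ANG II values lay below control, at a fold change short of the threshold (log2 fold change -0.36 ± 0.07 SE, adjusted p = 0.00333). It was called lower in 3 of 17 alternative fits, among them median-of-ratios scaling (log2 fold change -0.59, adjusted p = 0.000314) and quantile normalization (-0.53, adjusted p = 0.000677).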

How the data were processed

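Left ventricles of 4 saline-infused (control) and 4 ANG II-infused WT mice were profiled by poly(A) RNA-seq, and the groups were taken from the labels. The deposited values are FPKM per gene and library, computed by the authors. The processing notes name HISAT, Bowtie2 and RSEM. The genome build and annotation were not given in the sources used here.

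The 19364 genes averaging 0.1 FPKM or more across the 8 libraries entered a single limma fit (version 3.58.1, R 4.3.3). It used log2(FPKM + 1), moderated variances that follow the mean level, two-sided tests and Benjamini-Hochberg adjustment over all of them. A fold change is on the log2(FPKM + 1) scale, which understates the change of low genes. Genes were called at an adjusted p below 0.05 and an absolute log2 fold change above 0.5, the thresholds the study's methods name. The script was tested on simulated data.

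Fragments were recovered from the steps of the FPKM values with mean transcript lengths from GENCODE M21. Of the 190 values of the 43 genes under 60 fragments, 100% were whole within 0.05, and of all values 98.3%. voom on these fragments was an alternative. No pair of libraries agreed within sampling noise (lowest chi-square per gene 7.44). The study describes its samples as biological replicates and names more mice per group than the 4 analysed here, and p-values measure the spread between these libraries.

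The 43 genes and the lists were chosen with earlier results of these data known. All 43 may be named. Every library's value is printed for Birc5, Nuf2, Cdca3 and Bub1b, and in each class for the 4 called genes with the largest absolute fold changes and the 3 most abundant genes not called. Pathway genes outside the 43 are named for the 5 largest changes among those called. Classes were counted and not tested. Alternatives covered the pseudocount, the filter, the scaling, the variance trend, a replicate block, the fold threshold and leaving out each library. Promoter sequences were RefSeq's, on GRCm38.p6. Chance splits and set tests were not used.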

Additional observations from a re-analysis of the deposited data

Results flagged for a closer look

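In 6 of 86 sets of 4 libraries (43 genes in 2 groups), 1 library stood apart from the others of its group, with a gap to the nearest value that, as a share of the whole range, passed Dixon's 95% critical value. About 1 in 20 such sets is marked by chance. Of the 24 called genes 3 were marked. Nuf2 was low in ANG II library 4, at 1.17 FPKM with the next value at 3.10. Spc25 was low in control library 2, at 0.666 FPKM with the next at 1.23. Cenpk was high in control library 2, at 0.549 FPKM with the next at 0.123. Nuf2 and Spc25 were called in all 17 alternative fits, and Cenpk in 15 of 16. Of the genes not called, Cenpc1 was low in ANG II library 1 (5.36 FPKM, next 5.93), Cenpp was high in ANG II library 2 (2.47 FPKM, next 1.84) and Mad1l1 was high in ANG II library 1 (7.51 FPKM, next 6.76).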

How the results depend on the processing

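The number of the 43 genes called was 24 with FPKM as deposited and lay between 18 (genes of a mean of at least 1 FPKM only) and 29 (pseudocount 0.1, and voom on recovered fragments) over the alternative fits, and was 13 at an absolute log2 fold change above 1. Leaving out 1 library gave 23 to 28. The filter at 1 FPKM left out Cenpi, Cenpk, Cenpl, Cenpm, Ndc80, Nsl1 and Ttk, which were thus not tested in that fit. The constitutive centromere count of 5 was the least stable: 2 with a mean of at least 1 FPKM, 1 with quantile normalization, 8 with pseudocount 0.1, 8 with voom, 8 with the adjusted p alone, 0 above a log2 fold change of 1, and 4 to 8 with 1 library left out, the 8 without ANG II library 4. With the adjusted p alone the outer kinetochore had 11 called and the other pathway genes 24. Above a log2 fold change of 1 these were 3 and 6, and the spindle checkpoint 3. Over all genes, calls were higher in 90.8% as deposited, in 67.5% with median-of-ratios scaling, in 58.9% with quantile normalization and in 77.8% without mitochondrially encoded and the 10 most abundant genes.

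Under quantile normalization Cenpi, Cenpk, Cenpl, Cenpt and Mad2l1 lost their calls, and the log2 fold change turned to -0.11 in Cenpc1, -0.016 in Cenpq, -0.095 in Spc24, -0.27 in Ska2 and -0.038 in Bub3. Median-of-ratios scaling gave -0.16 in Ska2 and -0.0087 in Bub3, and removing mitochondrially encoded and top genes gave -0.095 in Ska2. With 1 library left out Cenpa ranged from -0.17 to 0.050 and Ska2 from -0.054 to 0.076. None of these reversed genes was called as deposited, and the cause was not tested. Cenpi lost its call in 6 fits. Over the 43 genes, 674 of 720 alternative fold changes kept their direction and stayed called or not called. With the replicate block 24 genes were called, the same 24 as without it. Libraries with the same number did not deviate together (correlations of deviations -0.016, 0.062, -0.032 and -0.0093), so the numbers were not taken as pairs. Low counts limit the values of genes under 1 FPKM in control, 21 of the 43.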
